A study of Mus musculus with 12 samples.

Results

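Folate carries single-carbon units that cells use to build thymidylate and purines and to remake methionine. Transcripts of 8 genes of this metabolism were described in 12 single whole mouse embryos collected on embryonic day 7.0, during gastrulation. The genes were chosen by name to cover folate entry (Folr1, Slc19a1), transfer of single-carbon units (Shmt1, Shmt2, Mthfd1, Mthfd2) and use of those units (Tyms, Mtr). All 8 were found in a table of 55291 genes, and all 8 were among the 16455 genes expressed highly enough to be tested. The embryos were 5 females and 7 males, all wild type, of the C57BL/6J strain and untreated, so no group was exposed to alcohol although the series concerns alcohol-induced craniofacial malformation. They came from 7 litters, of which litters 3, 6 and 9 contributed embryos of both sexes. Each embryo was 1 library made with a kit for ultra-low RNA input. The comparison of female with male embryos addresses whether the sexes differ in expression at this stage before any exposure.

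Levels are normalized counts, that is, fragments assigned to a gene after scaling by the authors for library depth. In units of 1e6, libraries of the 5 females held an estimated 91.8 ± 5.44 fragments (mean ± SD) and those of the 7 males 98.2 ± 10.3. Between 1418 fragments (Mtr) and 34589 fragments (Mthfd1) stood behind each gene in its shallowest embryo. Counting error there was at most 2.66% of the level and covers counting alone, since amplified fragments are not independent molecules. Markers of the epiblast, of the streak and mesoderm and of the visceral endoderm were above 0 in every embryo, as were those of the parietal endoderm and the maternal decidua; some trophoblast and adult blood markers were at 0 in some embryos. The embryos are bulk samples, in which fewer cells of a type and less RNA per cell cannot be told apart.

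Folate enters cells through the folate receptor alpha, encoded by Folr1, which takes it up by endocytosis, and through the reduced folate carrier, encoded by Slc19a1. In mouse, loss of either gene is lethal to the embryo, and Folr1 mutants fail to close the neural tube. Inside the cell the pathway runs in parallel in the cytosol and in mitochondria. Serine gives up a carbon through Shmt1 in the cytosol and Shmt2 in mitochondria, and the products are interconverted by the cytosolic enzyme Mthfd1 and the mitochondrial enzyme Mthfd2. Tyms spends the unit on thymidylate for DNA, and Mtr, a cobalamin enzyme, passes it to homocysteine to make methionine. In the postimplantation mouse embryo the visceral endoderm, an epithelium that covers the epiblast, takes up and passes on nutrients.

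The 8 genes lie on 7 chromosomes (GRCm38 coordinates, GENCODE gene models, all protein coding). Folr1 spans chr7:101858331-101870788 on the minus strand and Slc19a1 chr10:77032241-77061002 on the plus strand. Shmt1 spans chr11:60788104-60811718 and Shmt2 chr10:127517123-127522444, both on the minus strand. Mthfd1 spans chr12:76255298-76319803 on the plus strand and Mthfd2 chr6:83305691-83325908 on the minus strand. Tyms spans chr5:30058202-30073617 and Mtr chr13:12182712-12258113, both on the minus strand. Shmt1 shares 184 exonic bases with Smcr8 and Shmt2 shares 32 with Ndufa4l2, each on the opposite strand. Smcr8 had 10.3% of the mean level of Shmt1 and Ndufa4l2 1.64% of that of Shmt2, and the sources used here do not say whether the counting used strand. Pseudogene copies of Folr1, Shmt2 and Tyms had mean normalized counts of 0 (Gm18334), 0 (Gm15544) and 0.083 (Tyms-ps). The longest Tyms transcript also held a stretch matched in 168 other genes. The effect of these matches and overlaps on the counts was not tested.

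Upstream sequence is shown for the enzyme pairs that divide the pathway between the cytosol and mitochondria, Shmt1 with Shmt2 and Mthfd1 with Mthfd2, whose level ratios are among the results. The 250 bases before the RefSeq start of each gene (GRCm38.p6) are given 5′ to 3′ in the direction of transcription, with CCAAT boxes on either strand (CCAAT or ATTGG) in capitals. The RefSeq starts of Shmt1 and Mthfd2 lie inside the longer GENCODE spans.
Shmt1, chr11:60811266-60811515, - strand: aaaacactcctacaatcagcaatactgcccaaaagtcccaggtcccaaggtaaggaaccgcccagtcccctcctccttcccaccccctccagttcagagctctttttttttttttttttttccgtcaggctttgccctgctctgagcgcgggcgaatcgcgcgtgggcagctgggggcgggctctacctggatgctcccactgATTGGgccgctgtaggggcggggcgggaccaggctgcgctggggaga
Shmt2, chr10:127522445-127522694, - strand: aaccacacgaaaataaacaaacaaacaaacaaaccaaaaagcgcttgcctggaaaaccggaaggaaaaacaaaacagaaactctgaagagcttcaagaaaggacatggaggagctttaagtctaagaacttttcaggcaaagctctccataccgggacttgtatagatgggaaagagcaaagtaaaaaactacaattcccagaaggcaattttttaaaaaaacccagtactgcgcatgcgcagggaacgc
Mthfd1, chr12:76254982-76255231, + strand: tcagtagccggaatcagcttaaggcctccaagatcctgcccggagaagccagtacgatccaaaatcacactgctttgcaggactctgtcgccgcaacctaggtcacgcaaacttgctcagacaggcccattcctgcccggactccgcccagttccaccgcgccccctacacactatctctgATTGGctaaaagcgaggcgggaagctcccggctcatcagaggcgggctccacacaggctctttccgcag
Mthfd2, chr6:83317605-83317854, - strand: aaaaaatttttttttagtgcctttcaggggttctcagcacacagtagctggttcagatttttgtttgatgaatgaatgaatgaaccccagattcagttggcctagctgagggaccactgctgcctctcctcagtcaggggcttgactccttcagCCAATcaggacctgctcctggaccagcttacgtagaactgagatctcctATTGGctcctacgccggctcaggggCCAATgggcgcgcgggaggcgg

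The windows of Shmt1 and Shmt2 differed in these letters. That of Shmt1 held 1 CCAAT box and 4 GC boxes (GGGCGG on either strand, 2 of them overlapping by 1 base), and that of Shmt2 held neither. Mthfd1 had 1 CCAAT box and 1 GC box, and Mthfd2 had 3 CCAAT boxes and no GC box. Over the 7 genes with a window in the RefSeq table, 4 held a CCAAT box, against 33.8% of 32851 windows, and 5 held a GC box, against 32.7%. The amino acid response element bound by ATF4 (TGATGNAAN) was in none of the 7 and in 3.44% of all windows. The E2F element (TTTNNCGC) was also in none of the 7 and in 4.28% of all windows. A match describes letters only and does not show that a factor binds.

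Per kilobase of transcript, the genes that move single-carbon units had higher means than those that bring folate in, and Mtr had the lowest. Mthfd1 had 12992 ± 962 normalized counts per kilobase of its longest transcript (SD, n = 12 embryos). Shmt2 followed with 9782 ± 771 and Shmt1 with 7213 ± 510. Mthfd2 at 5495 ± 440 and Tyms at 5301 ± 332 did not differ beyond their spread. Folr1 had 3991 ± 1391 per kilobase, and its spread reached both Tyms above it and Slc19a1 below it, at 2655 ± 302. Mtr had 250.3 ± 42.8 per kilobase. When the length of all annotated exons was used, the order was the same except that Tyms, at 3382 per kilobase, stood above Mthfd2, at 3286.

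**Figure D1:**
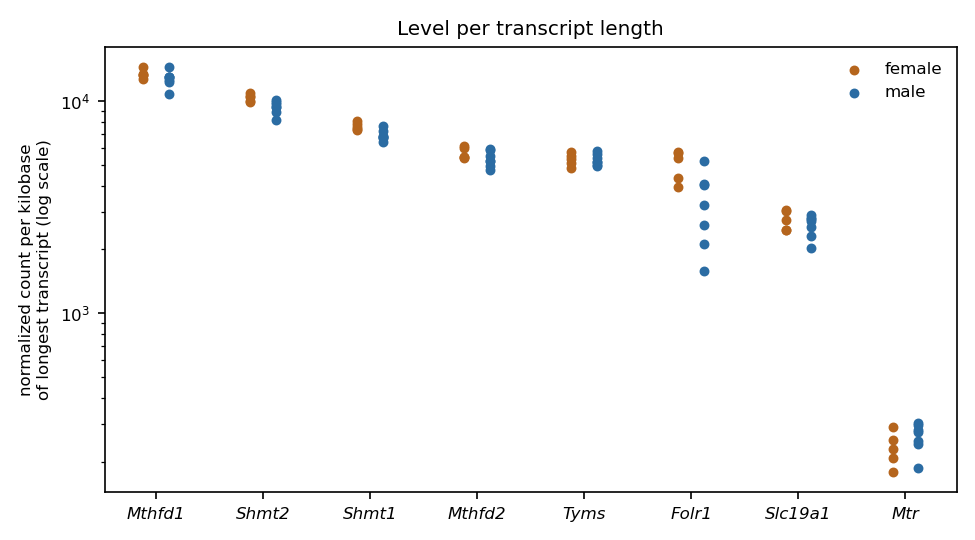
Normalized count per kilobase of the longest transcript (log axis) for each gene, ordered by mean; points are single embryos, females left of males. Mthfd1 lies highest, Mtr lowest at 179 to 305 per kilobase, and Folr1 has the widest range, 1578 to 5743.

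Folr1 was the most variable of the 8 genes. Its normalized count was 5701, 7062, 7541, 5164 and 7443 in female embryos 1 to 5, against 6836, 2072, 5341, 5283, 2778, 3413 and 4245 in male embryos 1 to 7. Males 2, 5 and 6 were lowest, 4 of 7 males lay below the lowest female, and the sexes overlapped. The highest embryo was 3.64 times the lowest, and the coefficient of variation (CV, the SD as a share of the mean) was 34.8%. Of the 8300 tested genes with a mean of at least 1000, 97.9% had a smaller CV, and the median was 11.8%. Counting error at its lowest level was 2.13%.

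The carrier Slc19a1 varied much less, with a CV of 11.4%. It had 7040, 8812, 7084, 8648 and 7843 normalized counts in females, against 7937, 7768, 8061, 8278, 7297, 5820 and 6633 in males. Males 6 and 7 were lowest and the other embryos of both sexes were intermixed. The log2 ratio of Folr1 to Slc19a1 within an embryo does not depend on library scaling. It was -0.27 ± 0.31 in females and -0.88 ± 0.57 in males (SD, n = 5 and 7), a difference of 0.61 that did not pass an exact two-sided permutation test (p = 0.0543, adjusted p = 0.163 over 3 ratios). Without female 4 or without male 1 the unadjusted p fell to 0.0333 and 0.0238. Leaving out other embryos raised it to as much as 0.13, and over the 15 alternatives its highest value was 0.25.

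Shmt1 and Shmt2, the enzymes that take the carbon from serine, stayed within a narrow range. Shmt1 had 20926, 22386, 21643, 21116 and 22959 normalized counts in females, against 20625, 19305, 19445, 21936, 19120, 19600 and 18326 in males. Only male 4 lay above the lowest female. Shmt2 had 22564, 24014, 25033, 22947 and 24322 in females, against 22685, 21501, 22078, 21537, 23075, 18672 and 20257 in males. Males 1 and 5 lay above the lowest female and the other 5 males below it. The CV was 7.07% for Shmt1 and 7.88% for Shmt2. The log2 ratio of mitochondrial Shmt2 to cytosolic Shmt1 averaged 0.12 ± 0.05 in females and 0.11 ± 0.12 in males, a difference of 0.01 (exact permutation p = 0.854, adjusted p = 0.932).

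Mthfd1, the cytosolic enzyme with 3 activities, and Mthfd2, the mitochondrial dehydrogenase and cyclohydrolase known in mouse embryos and dividing cells, overlapped between the sexes. Mthfd1 had 43022, 41066, 42968, 46802 and 43342 normalized counts in females, against 41978, 41894, 42037, 40563, 39951, 46767 and 34900 in males. Male 7 was lowest, and female 4 and male 6 were highest. Mthfd2 had 12578, 11189, 11354, 12826 and 11389 in females, against 10884, 11452, 12306, 10307, 12391, 9877 and 10930 in males. Male 6 was lowest for Mthfd2 and near the top for Mthfd1. The log2 ratio of Mthfd2 to Mthfd1 was -1.87 ± 0.06 in females and -1.88 ± 0.20 in males (difference 0.01, exact permutation p = 0.932, adjusted p = 0.932).

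Tyms was the least variable of the 8 genes, with a CV of 6.26% and a highest value 1.21 times the lowest. It had 19795, 22469, 18717, 20723 and 21378 normalized counts in females, against 21818, 20030, 19202, 20899, 19328, 20071 and 22657 in males. Mtr had 2421, 2088, 1481, 1736 and 1914 in females, against 1547, 2009, 2284, 2481, 2077, 2528 and 2349 in males. Its CV of 17.1% was the second largest after Folr1, and both sexes held low and high embryos. Of the tested genes with a mean of at least 1000, 10.7% varied less than Tyms and 75.7% less than Mtr.

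**Figure D2:**
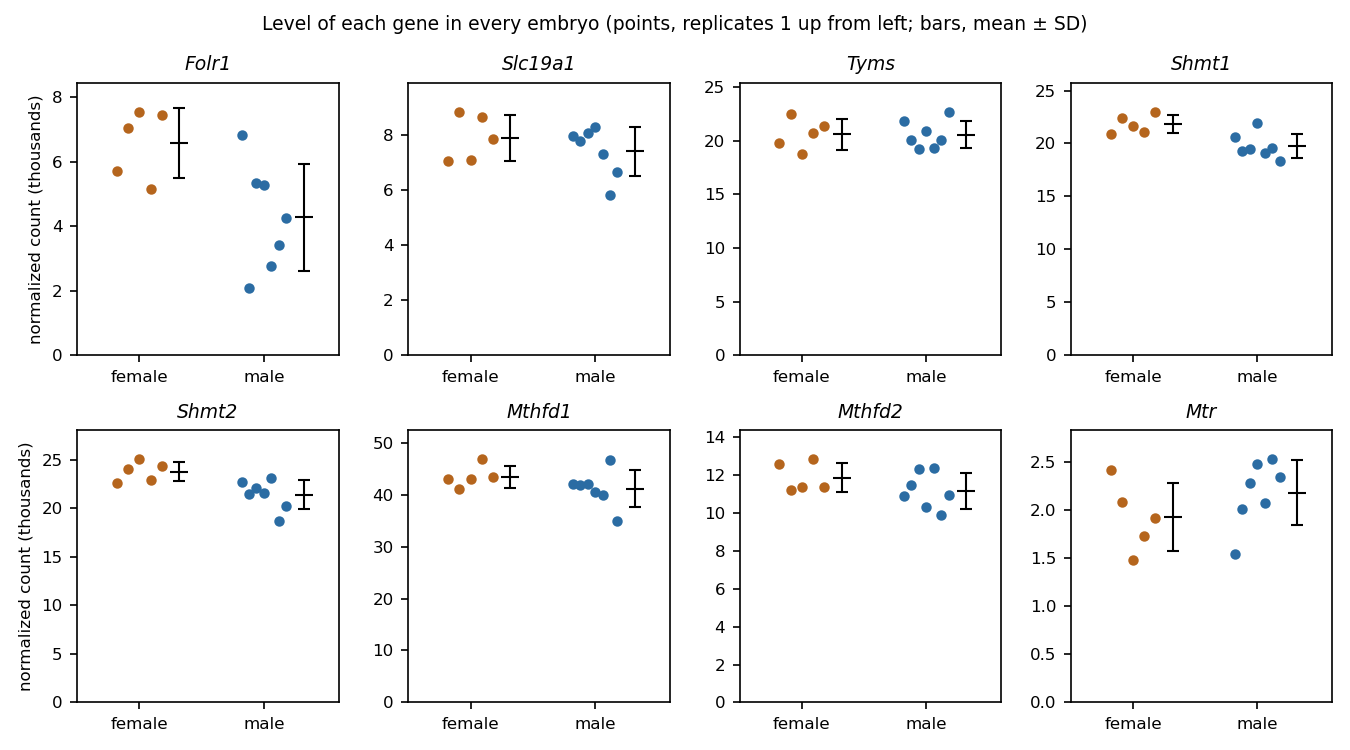
Normalized counts for each gene, in units of 1000; points are single embryos in replicate order, females left of males, and bars give the mean ± SD of each sex (n = 5 and 7). All axes start at 0. Folr1 has the widest range, 3.64-fold, and females and males overlap in every panel.

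None of the 8 genes differed between female and male embryos after adjustment over all genes tested. In limma's test, 0 of 8 passed an adjusted p of 0.05, against 0.0425% of the 16455 genes tested (0.0182% higher and 0.0243% lower in females, 7 genes in all). At an unadjusted p below 0.05, 3 of 8 were higher in females and none lower, against 5.13% and 5.64% of all genes tested. Those 3 were Folr1, Shmt1 and Shmt2. The log2 fold change of female over male was 0.71 ± 0.24 for Folr1 (SE, limma adjusted p = 0.343), or 6582 ± 1082 in females and 4281 ± 1661 in males. It was 0.14 ± 0.05 for Shmt1 (limma adjusted p = 0.340), or 21806 ± 858 in females and 19765 ± 1175 in males. For Shmt2 it was 0.15 ± 0.05 (limma adjusted p = 0.347), or 23776 ± 1011 in females and 21401 ± 1511 in males. Exact two-sided permutation of the sex labels gave unadjusted p = 0.029 for Folr1, 0.0126 for Shmt1 and 0.0152 for Shmt2, where the smallest p the design allows is 0.00126. This permutation took littermates as independent embryos. The other 5 genes had log2 fold changes from -0.18 (Mtr) to 0.09 (Slc19a1) and limma adjusted p of at least 0.666.

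Of 18821 genes with an adjusted p in the authors' deposited table, 1.14% passed an adjusted p of 0.05, none of them among the 8, and Shmt1, Shmt2 and Folr1 had adjusted p of 0.150, 0.196 and 0.206. The values of the sexes did not overlap in 0.772% of the genes tested and overlapped in all 8. Within the 3 litters that held both sexes, the female was above the mean of the males in all 3 for Folr1, Shmt1, Shmt2 and Mthfd2. For Folr1 the female had 5701 and the males a mean of 3706 in litter 3. The female had 7541 and the males 3095 in litter 6, and the female had 7443 and the male 4245 in litter 9. Slc19a1 and Mthfd1 were higher in the female in 2 of the 3 litters, and Tyms and Mtr in 1. Each of these litters held 1 female, and its embryos were also part of the test of sex. The share of all genes higher in the female in all 3 litters was not computed.

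**Figure D3:**
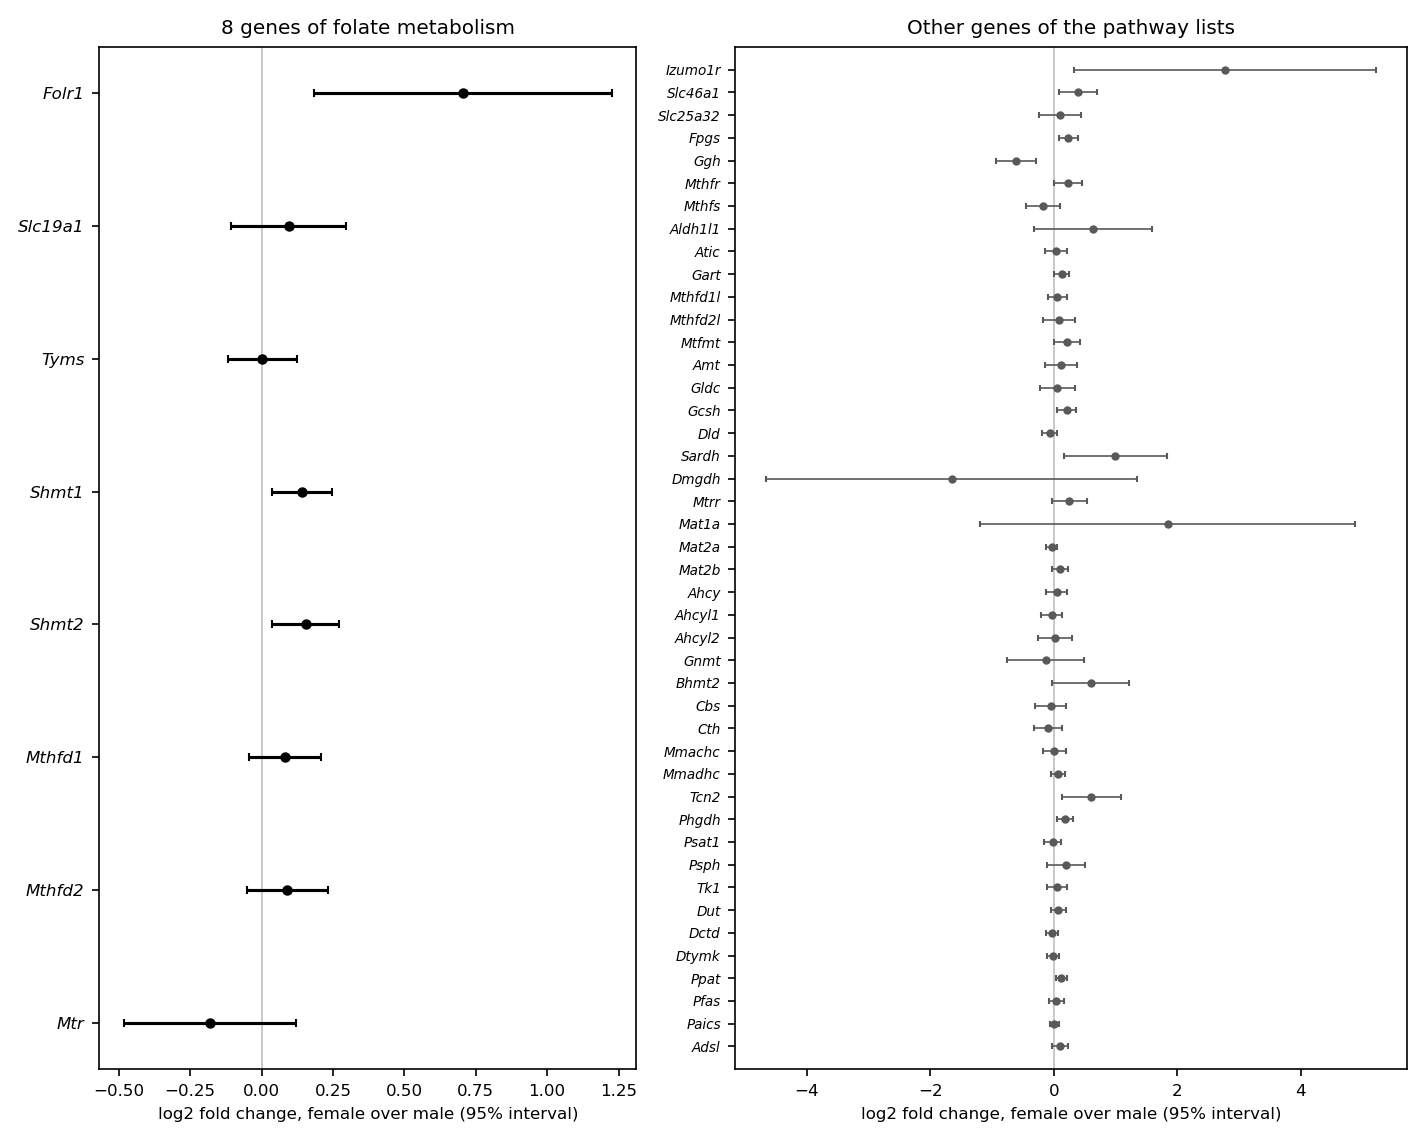
Log2 fold changes (female over male) and 95% intervals from limma, for the 8 genes (left) and 44 of the 45 other pathway genes tested (right, on its own scale; 1 is not reported here). The intervals of Folr1, Shmt1 and Shmt2 lie above 0 before adjustment for multiple tests; those of the other 5 genes include 0.

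Folr1 followed the visceral endoderm markers from embryo to embryo. The list held 12 genes of that epithelium, among them the apolipoproteins Apoa1 and Apob, the plasma proteins Afp, Ttr and Trf, and Amn and Cubn, the subunits of an endocytic receptor. Its level, the mean log2 level of its genes relative to the 12 embryos, was 0.22, 0.19, 0.66, 0.23 and 0.35 in females 1 to 5, against 0.40, -0.85, 0.14, 0.12, -0.61, -0.69 and -0.15 in males 1 to 7. Males 2, 5 and 6 were lowest, as they were for Folr1. Pearson's r with Folr1 was 0.954 (permutation p = 1e-05, the smallest 100000 resamples can give, adjusted p = 0.00072 over 72 relations of the 8 genes with 9 lists) and Spearman's rho 0.881 (adjusted p = 0.0202). Without males 2 and 6, the embryos farthest from the median level of the list, r was 0.940. With the sex means taken out r was 0.926, and over the 8 embryos of the 3 litters with both sexes, with litter means taken out, it was 0.970.

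Folr1 correlated with each of the 12 visceral endoderm genes, with r between 0.746 (Apob) and 0.964 (Amn). Of 12524 genes outside the list with a mean of at least 100, 22 (0.176%) had an r with the list as high as that of Folr1, and the 95th percentile was 0.698. The genes most like Folr1 over the 12 embryos were Dhx32, of a helicase family, and Slc39a5, a zinc transporter, with r of 0.984 and 0.969. The list itself had 12 of 12 genes higher in females on average, against 8192 of the 16455 genes tested. Its median log2 fold change was 0.59, against 0.00 over all genes tested. None passed the threshold by limma, and 9 had an unadjusted p below 0.05, against 5.13% of all genes tested, higher in females. Each of the 12 followed Folr1 over the same embryos, so they are not independent. In the authors' deposited table, 2 of the 12 passed an adjusted p of 0.05, Afp (0.00866) and Trf (0.000707), against 1.14% of its genes with an adjusted p. The summed normalized count of the list ranged from 296021 to 418430 in females and from 136679 to 352246 in males. With the list's level as a covariate in limma, the log2 fold change of Folr1 was 0.06 (adjusted p = 0.964). Those of Shmt1 and Shmt2 were 0.10 and 0.10 (adjusted p = 0.824 and 0.839), against 0.14 and 0.15 without the covariate. This fit was added after the data were seen. Since Folr1 followed the list and the list was higher in females, the fit was bound to bring the fold change of Folr1 toward 0. Folr1 is itself known from mouse visceral endoderm. The part of the amount of that tissue in the difference between the sexes was not tested. Genes of other marker lists also differed between the sexes before adjustment. Of 11 trophoblast genes tested, 2 were higher in females on average, and the median log2 fold change was -0.47. At an unadjusted p below 0.05 by limma, 6 of the 11 were lower, against 5.64% of all genes tested. Of 10 streak and mesoderm genes, 7 were higher on average, with 4 higher and 2 lower at that p. None of either list passed the threshold by limma.

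**Figure D4:**
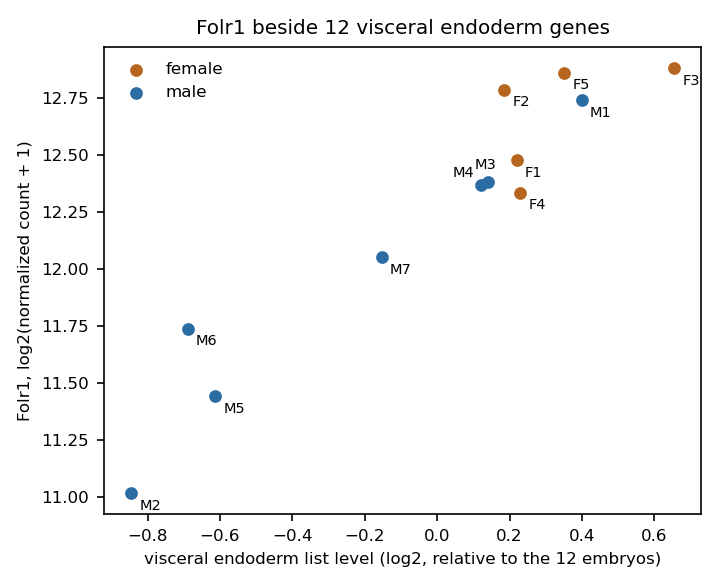
Folr1 as log2(normalized count + 1) beside the level of 12 visceral endoderm genes (log2, relative to the 12 embryos); each point is an embryo, labelled F for female or M for male with its replicate number. Males 2, 5 and 6 are low on both axes and both values rise together over the 12 embryos (r = 0.954).

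No other member passed the threshold with any list. Shmt1 and Shmt2 had r of 0.671 and 0.657 with the visceral endoderm list (permutation, adjusted p = 0.206 for each). Mthfd1 had r of 0.787 with the epiblast list (adjusted p = 0.0922), which was 0.359 without males 6 and 7. Folr1 had r of -0.770 with the targets of ATF4, a factor of the amino acid response (adjusted p = 0.0922), and -0.713 with the trophoblast markers (adjusted p = 0.161). The level of the ATF4 list gives each gene equal weight. It includes Slc7a11 and Nupr1, with means of 30.6 and 18.6 normalized counts, which were at 0 in some embryos. The level of the trophoblast list ranged from -0.89 to 0.17 in females and from -0.53 to 1.06 in males (log2, relative to the 12 embryos). Its summed normalized count ranged from 84835 to 115023 in females and from 93730 to 180358 in males. In that sum Krt8 and Krt18 had the highest means, 46424 and 45467. Prl3d1, the next in mean, ran from 1336 (female 3) to 54012 (male 2). The part of trophoblast in the Folr1 values was not tested. The level of the S phase list spanned only -0.01 to 0.09 in females and -0.10 to 0.07 in males (log2, relative to the 12 embryos). Tyms, whose enzyme serves DNA synthesis, had r of -0.268 with it.

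Among the 28 pairs of the 8 genes, none passed the threshold after adjustment, 18 had a positive r, and 4 had an unadjusted permutation p below 0.05. Folr1 and Shmt1 had r = 0.730 (rho 0.748, adjusted p = 0.171), and 0.527 with the sex means taken out. Shmt1 and Shmt2 had r = 0.642 (rho 0.594, adjusted p = 0.208), and 0.30 with the sex means out. Shmt2 and Mtr were opposed, with r = -0.665 (rho -0.699, adjusted p = 0.208). Slc19a1 and Shmt2 had r = 0.605 (rho 0.371, adjusted p = 0.261), which rested on males 6 and 7 and was -0.173 without them. Folr1 and Shmt2 had r = 0.570 (rho 0.699, adjusted p = 0.291), which was 0.954 without males 2 and 5 and 0.265 with the sex means taken out. The cytosolic and mitochondrial Mthfd enzymes had r = 0.107 (rho 0.252, adjusted p = 0.911).

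**Figure D5:**
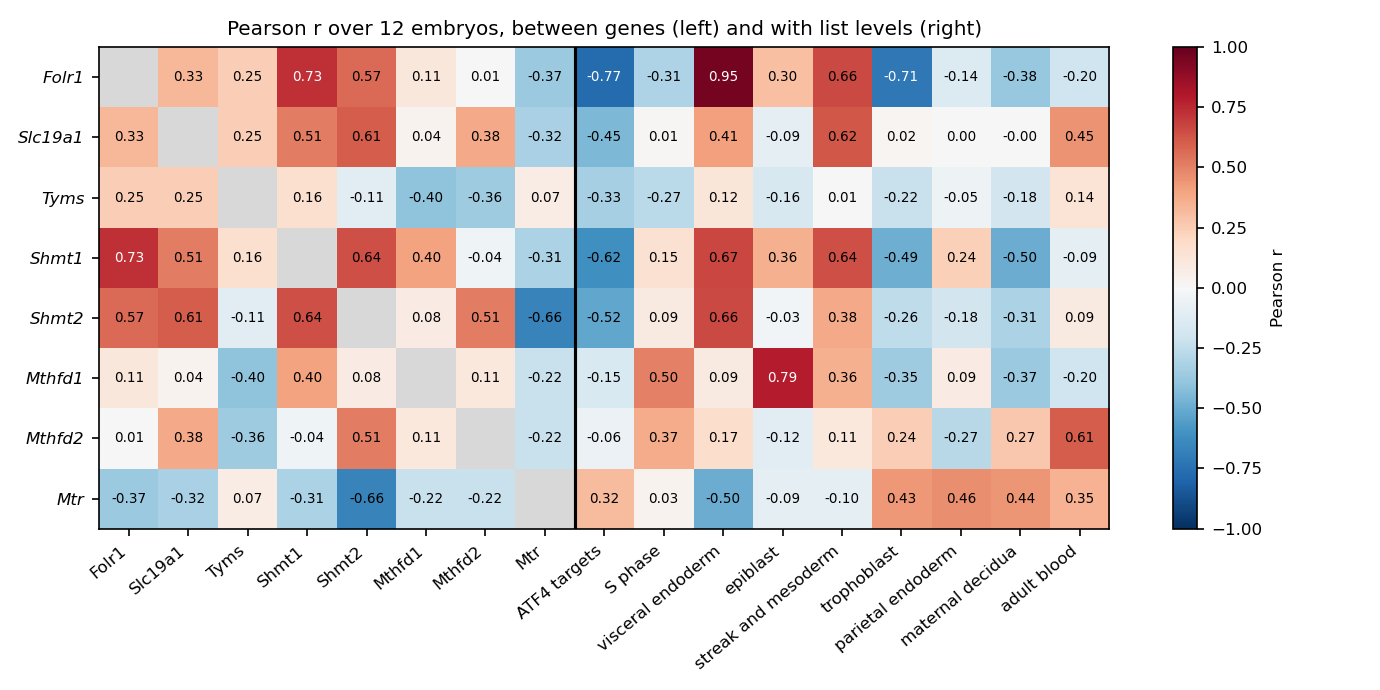
Pearson r over the 12 embryos for each pair of genes (left of the line) and of each gene with 9 lists (right of it); red is positive and blue negative, with r printed in each cell. The cell of Folr1 with the visceral endoderm list (0.95) is the one relation past the threshold.

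The genes of highest r were also read for the other 7 genes, as a description of these 12 embryos with no test. For Slc19a1 they were Sap18 (r = 0.918) and Tmem199 (0.906), and for Tyms Gm8355 (0.878) and Asic1 (0.844). For Shmt1 they were Arf1 (0.944), a small GTPase of vesicle traffic, and Pgp (0.923), a phosphatase. For Shmt2 they were Gfer (0.913), of mitochondrial protein import, and Mrto4 (0.904), of ribosome assembly. For Mthfd1 they were Akap12 (0.927) and Socs2 (0.907), for Mthfd2 Lrp5 (0.854) and Kansl2 (0.824), and for Mtr Pum2 (0.897) and Zfp759 (0.853). The 95th percentile of r over 12536 genes with a mean of at least 100 was between 0.466 (Mthfd2) and 0.70 (Folr1). The named genes were picked as the highest of these, so they lie above that percentile by selection. Whether their r exceeds the highest expected among as many unrelated genes was not tested.

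The other pathway genes had no call between the sexes either. Of 49 further genes in 7 lists, 45 were tested, none rose or fell in limma's test, 11 were higher and 2 lower in females at an unadjusted p below 0.05 (5.13% and 5.64% of all genes tested), and the median log2 fold change was 0.07, against 0.00 for all genes tested. In uptake and storage (5 of 6 tested, 0 called), Fpgs, which adds glutamates that hold folate in the cell, had 3927 ± 152 in females and 3345 ± 274 in males (log2 fold change 0.23 ± 0.07 SE, limma adjusted p = 0.296). Its lowest female, at 3774, lay above its highest male, at 3699; every female was above every male in 0.395% of the genes tested. Slc25a32, the mitochondrial folate carrier, had 1862 ± 215 in females and 1772 ± 428 in males, and Slc46a1, the proton-coupled carrier, had 1584 ± 254 in females and 1215 ± 212 in males. Ggh, which removes those glutamates, was chosen after its values were seen. It had 623, 516, 610, 564 and 622 normalized counts in females, against 887, 906, 842, 704, 731, 1211 and 1083 in males, so every female lay below every male, as in 0.377% of the genes tested. Its log2 fold change was -0.61 ± 0.15 (SE, limma adjusted p = 0.215), whereas the authors' deposited table gave it an adjusted p of 0.00622 and called no other of the 49.

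In the cytosolic cycle (6 of 7 tested, 0 called), Gart, of purine synthesis, had 62775 ± 1805 in females and 57636 ± 5067 in males. In the mitochondrial cycle and glycine cleavage (9 of 10 tested, 0 called), Gcsh, the H protein of glycine cleavage, had 44906 ± 1886 in females and 39019 ± 4393 in males (log2 fold change 0.21, limma adjusted p = 0.332). In the methionine cycle and its branches (14 of 15 tested, 0 called), Mat2a, which makes S-adenosylmethionine, had 67007 ± 4653 in females and 68513 ± 2032 in males. Serine synthesis (3 of 3 tested, 0 called) was led by Phgdh, its first enzyme, with 50352 ± 1313 in females and 44516 ± 4348 in males (log2 fold change 0.18, limma adjusted p = 0.312). Thymidylate supply (4 of 4 tested) and purine synthesis (4 of 4 tested) also had no call. Dut, which makes the substrate of Tyms, had 37069 ± 2002 in females and 35239 ± 2620 in males, and Paics had 77737 ± 2094 in females and 77335 ± 2432 in males.

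Some relatives of the 8 genes were at or near 0. Bhmt, which remethylates homocysteine without folate, was listed at 0 in all 12 libraries, and its relative Bhmt2 averaged 489 normalized counts. Folr2, a second folate receptor, averaged 1.43 normalized counts, Ftcd 6.63 and Aldh1l2 14.6, and none of these was tested.

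Of the 45 pathway genes, 4 passed the threshold in correlation with the visceral endoderm list (permutation, adjusted over the 45), a comparison added after the data were seen. Tcn2, which carries cobalamin, the cofactor of Mtr, had r = 0.974 (rho 0.874, adjusted p = 0.00045). It had 6946, 7157, 10249, 6958 and 9044 normalized counts in females, against 7820, 3612, 7927, 6427, 3552, 3445 and 5984 in males. Gcsh had r = 0.934 (rho 0.839, adjusted p = 0.00203), Psph, the last enzyme of serine synthesis, 0.829 (rho 0.734, adjusted p = 0.0185) and Phgdh 0.799 (rho 0.818, adjusted p = 0.0227). Among the 12524 genes with a mean of at least 100 outside the list, 0.0559% had an r of either sign as large as that of Tcn2, 0.335% as that of Gcsh, 2.15% as that of Psph and 2.87% as that of Phgdh. Males 2, 5 and 6 were the lowest embryos for Tcn2 and Gcsh, as for Folr1. Without males 2 and 6, r was 0.958 for Tcn2, 0.913 for Gcsh, 0.738 for Phgdh and 0.648 for Psph. The call of Phgdh was lost without any single one of females 3 and 5 and males 1, 2, 5 and 6 (permutation, adjusted p from 0.0516 to 0.0719) and with the sex means taken out (adjusted p = 0.131). That of Psph was lost without male 5 or male 6 (adjusted p = 0.0516 and 0.0657) and by rank (adjusted p = 0.0635).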

How the data were processed

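Single embryos were sequenced as read pairs. Per the submitters' processing notes, the tools were DESeq2 1.34.0, Salmon 1.5.2, STAR 2.7.7a and cutadapt 4.1, with the mm10 build; their settings are not given. The 12 columns per embryo hold variance-stabilized log2 values deposited by the authors, with a floor of 10.4141 in the file. The mean level (a signal on the normalized count scale), the log2 fold change and the p-values per gene are the authors' deposited values, as is the standard error of the fold change, a score that was not used. For each of the 8 genes that fold change is nearer to 0 than the one computed here. Undoing the transformation gave normalized counts, whose mean equalled the deposited mean (relative tolerance 1e-06) for 98.95% of 25451 genes and all 8 here. Whole reads were not recovered (79.3% to 82.1% of low values whole within 0.1), so no count model was used.

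The test of sex was limma's (version 3.58.1, R 4.3.3), fitted to log2(normalized count + 1) with the spread trended on the mean; this scale understates changes of low genes. A gene entered when 5 or more embryos had a normalized count of 10 or more, with Benjamini-Hochberg adjustment and a threshold of 0.05, two-sided. Ratios were compared over the 792 splits of the embryos into 5 and 7. Correlations used 100000 permutations. The splits, the permutations and the main limma fit took all embryos as independent, although some shared a litter. GENCODE M21 gave gene models, BLAST 2.17.0 near copies (at least 90% identity over 200 bases) and RefSeq the upstream windows; the RefSeq table held none for Folr1 and 2 for Slc19a1, counted as 1 gene. Intervals are 95%. The fit was tested on simulated data. Replicates are separate embryos.

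The genes, lists and tests were chosen with earlier results of these data known. Named genes were the 8, up to 3 of the highest mean per list where none passed, and the 2 most alike genes per member with a mean of at least 100; Ggh, Bhmt2, and Tcn2, Psph, Amt, Adsl and Pfas from the added comparison with the visceral endoderm list, were chosen after their values were seen. The result of 1 list gene is not reported here. Alternatives were other pseudocounts, filters, scalings, blocks, covariates, rank correlation and leaving out each embryo.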

Additional observations from a re-analysis of the deposited data

How the results depend on the processing

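No member was called under any of 23 alternatives, no pathway gene under any of 22, and no pair of members passed under any of 15. The relation of Folr1 to the visceral endoderm list passed under all 15, with r from 0.881 (rank correlation) to 0.968. Over all genes, 7 were called; the count was 4 with litter as a block, 4 with the replicate block, and 5 to 9 when each embryo was left out. The count of genes higher in females, 3, was 1 with a pseudocount of 0.5, 5 on the deposited scale, 0 with litter, 0 with the replicate block, and 1 to 3 without each embryo. No female shared a litter with the male of the same replicate number. The deviations of same-numbered females and males had r between -0.068 and 0.009. Those of females and males of the same litter had r between -0.041 and 0.070, so this measure could not show pairing.

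Directions near 0 turned. The log2 fold change of Tyms was -0.00145 under trimmed-mean scaling, -0.0447 with litter, -0.0167 with the visceral endoderm covariate and -0.0291 to 0.0368 without each embryo; that of Slc19a1 was -0.00209 with the replicate block. The difference between the sexes (female minus male) in the log2 ratio of Shmt2 to Shmt1 was -0.0195 with the replicate block. It was -0.00421 within litters and -0.0196 to 0.0373 without each embryo. The same difference for Mthfd2 to Mthfd1 was -0.0218, -0.0531 and -0.0512 to 0.0435 under the same settings. For Folr1 to Slc19a1 the difference was 0.44 to 0.73 without each embryo. It had an unadjusted permutation p below 0.05 without female 4 (0.729) or male 1 (0.722). Without other embryos that p was up to 0.13, and over the 15 alternatives up to 0.25. With the sex means taken out, 2 relations with lists passed, the other being Folr1 with the S phase list, and 1 to 2 passed without each embryo. For pathway genes, 2 to 5 passed without each embryo, 4 with all. The correlation of Phgdh was 0.664 with the sex means out, and that of Psph 0.734 by rank. The cause of these changes was not tested. Depth limits Mtr most, with 1418 fragments at its lowest.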

Other observations

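Under 1 of the 15 alternatives, that with the sex means taken out, Folr1 and the S phase list were opposed. There r was -0.931 (permutation, adjusted p = 0.00144 over 72 relations). Over the 12 embryos without that step it was -0.310 (rho -0.224, adjusted p = 0.685). The relation is named because it passed in that setting, and the adjustment does not cover the choice among settings. The S phase level was 0.07, 0.02, 0.01, 0.09 and -0.01 in females 1 to 5, against -0.10, 0.07, -0.07, -0.04, 0.00, 0.02 and -0.06 in males 1 to 7. Male 2 combined the lowest Folr1 with the highest S phase level of the males, and male 1 the highest Folr1 with the lowest S phase level.

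Leaving out 1 embryo let 3 further relations of the 8 genes with lists pass, each under that setting. Mthfd2 had r of 0.827 with the adult blood list without female 3, an embryo with an adult blood level of -3.04. Mthfd1 had r of 0.865 with the epiblast list without female 4, and Folr1 had r of -0.843 with the trophoblast list without male 6. Among the other pathway genes, 3 passed with the visceral endoderm list under an alternative alone. Amt, of glycine cleavage, had r of 0.785 without male 4 (permutation, adjusted p = 0.0294) and rho of 0.867 over the 12 embryos (adjusted p = 0.0122), against r of 0.729 (adjusted p = 0.0608). Adsl, of purine synthesis, had rho of 0.783 (permutation, adjusted p = 0.0348), against r of 0.343. Pfas, also of purine synthesis, had r of -0.794 with the sex means taken out (permutation, adjusted p = 0.027), against -0.470.

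Markers of other tissues also differed widely among embryos. The parietal endoderm level was 1.78 in female 5 and 1.62 in male 4 and at most 0.52 in the others. Folr1 in those embryos was 7443 and 5283 normalized counts. Over the 12 embryos r of Folr1 with that list was -0.137 (adjusted p = 0.904), and without female 5 and male 4 it was -0.756 (unadjusted permutation p = 0.0123). This relation was picked after its values were seen, and that p is not adjusted over the 72 relations treated in the same way. Tyms with the adult blood list had an r of similar size, -0.760, without female 3 and male 6, against 0.135 over the 12 embryos.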
